A study of Mus musculus with 6 samples.

Results

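General transcription factors of adipogenesis were followed in primary brite adipocytes after knockdown (KD) of the long noncoding RNA *Ctcflos*. The members were chosen by name: every line of the deposited table with the symbol *Pparg*, *Cebpa*, *Cebpb*, *Cebpd*, *Klf4*, *Klf5*, *Klf15*, *Srebf1*, *Rxra* or *Stat5a* was taken, which gave 10 of 52089 genes and 64 of 168021 lines, since the table has a line for each transcript accession. Preadipocytes from the stromal-vascular fraction of inguinal white adipose tissue of 129SvEv mice, which per the study's methods were young males, had 2 days of induction and then 1 day of differentiation with rosiglitazone, a PPARγ agonist that drives browning. They were then reverse transfected at 50 nM with an LNA Gapmer antisense oligonucleotide (ASO), either 1 that targets *Ctcflos* (*Ctcflos* KD, n = 3 libraries) or a nontargeting control (NC ctrl, n = 3), and harvested after 24 h. Both groups therefore received rosiglitazone and a transfected oligonucleotide, and with a single *Ctcflos* oligonucleotide the loss of *Ctcflos* and other effects of that oligonucleotide cannot be told apart. The labels do not say whether replicates are separate cultures, so that p-values measure the spread between these libraries, which may be technical.

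Fat cell differentiation runs through a cascade of transcription factors. Hormonal induction first raises C/EBPβ, C/EBPδ and Krüppel-like factors such as KLF4 and KLF5, and growth hormone and related signals act through STAT5A. These factors activate *Pparg* and *Cebpa*, which sustain each other and switch on the genes of the mature adipocyte. PPARγ binds DNA as a heterodimer with a retinoid X receptor, here RXRα, while KLF15 and SREBP1, the product of *Srebf1*, act later, on glucose uptake and fatty acid synthesis.

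The values are RPKM, in which the reads on a transcript are divided by its length in kilobases and by the mapped reads of the library. The gene value is the mean over its accessions, and tests are limma-trend on log2(RPKM + 1) in genes whose mean RPKM reached 1 (the filter), with p-values adjusted by Benjamini-Hochberg over all of them and a threshold of 0.05. This scale understates the change of weakly expressed genes. The depth recovered from the values was 60.8 to 75.5 mio mapped reads in *Ctcflos* KD and 62.9 to 79.2 mio in NC ctrl. *Ctcflos*, listed as 1300015D01Rik, was left at 16.1% of the control level, and KD replicate 3 kept the most of it, with 0.210 RPKM against 0.0969 and 0.0705 RPKM in KD replicates 1 and 2. KD replicate 3 also stood apart in several members, and results that rest on it are given with and without it. The cells carried high levels of adipocyte markers, as the summed RPKM of *Adipoq*, *Fabp4*, *Plin1*, *Cidec*, *Lpl* and *Cd36* was 4610 to 6080 in *Ctcflos* KD and 6230 to 6910 in NC ctrl.

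Among the members, *Cebpa*, *Klf15* and *Rxra* fell and *Klf4* rose in *Ctcflos* KD. These are 4 calls among the 9 members that passed the filter, of which 3 were lower and 1 higher, while of all 11701 genes tested 24.0% were called, 12.4% lower and 11.5% higher. *Klf5* was under the filter and was tested without it. The groups did not overlap for 7 of the 10 members, and for 6 of the 9 that passed the filter, beside 44.8% of all genes tested. In bulk RNA, fewer cells that express a gene and less of its RNA per cell cannot be told apart. An exact two-sided permutation test of the mean RPKM gave p = 0.1 for these 7 members, the smallest p that 3 libraries against 3 allow. The log2 fold changes of all genes tested had a median of 0.03.

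**Figure D1:**
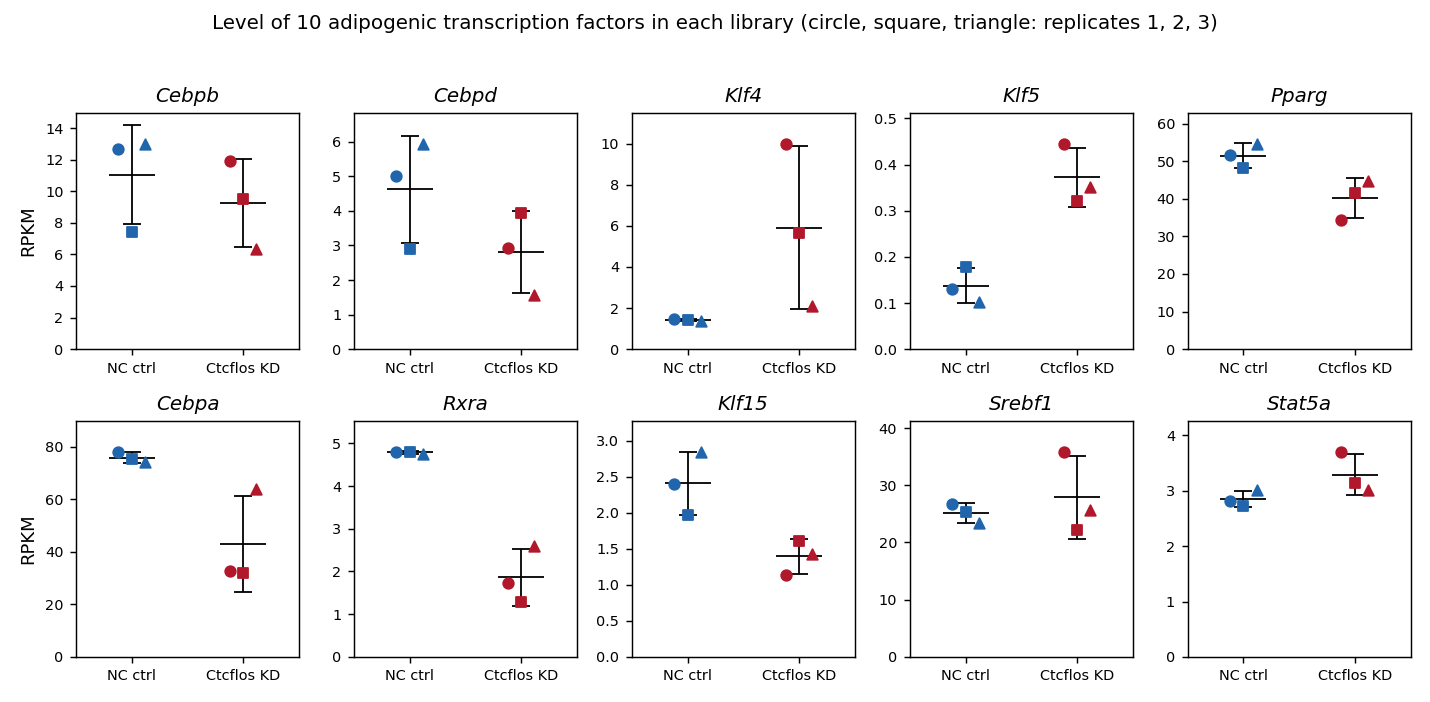
RPKM of each of the 10 factors (vertical axes, linear from 0, own scale per panel) in the 3 NC ctrl libraries (blue) and the 3 *Ctcflos* KD libraries (red). The wide black line is the mean, the bars are ± SD and the symbols are replicates 1 (circle), 2 (square) and 3 (triangle); KD replicate 3 lies nearest to the controls in *Klf4*, *Cebpa*, *Rxra* and *Pparg*, while the *Cebpb*, *Cebpd* and *Srebf1* groups overlap.

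Sequences before the transcription start are shown for the 4 called members, so that the promoters of the 3 genes that fell and the 1 that rose can be read side by side. They are the 250 bases upstream of the RefSeq start on GRCm38.p6, written 5′ to 3′ on the strand of the gene, and *Rxra* is shown at the first of its 2 RefSeq starts. The *Rxra* window lies downstream of the start of the *Rxra* locus given below, which is from Gencode. RefSeq windows were matched for 8 of the 10 members, 14 windows in all. Capitals mark matches on either strand to the CCAAT box, to CACGTG, an E-box, to GGGCGG, the GC box, to the CACCC box, a motif of the KLF type, and to TATAAA, the TATA box, which may overlap each other.
*Cebpa*, chr7:35119043-35119292, plus strand: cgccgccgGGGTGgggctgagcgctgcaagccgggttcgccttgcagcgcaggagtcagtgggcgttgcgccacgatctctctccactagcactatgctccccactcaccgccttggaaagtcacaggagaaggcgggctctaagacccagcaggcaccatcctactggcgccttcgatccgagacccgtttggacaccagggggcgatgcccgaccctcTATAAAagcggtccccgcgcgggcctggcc
*Klf15*, chr6:90462326-90462575, plus strand: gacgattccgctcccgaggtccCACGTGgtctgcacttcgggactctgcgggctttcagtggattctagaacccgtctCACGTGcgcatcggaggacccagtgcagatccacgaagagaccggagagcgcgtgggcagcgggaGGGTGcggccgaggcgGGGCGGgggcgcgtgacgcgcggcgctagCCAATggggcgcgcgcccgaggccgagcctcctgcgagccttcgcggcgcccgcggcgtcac
*Rxra*, chr2:27676951-27677200, plus strand: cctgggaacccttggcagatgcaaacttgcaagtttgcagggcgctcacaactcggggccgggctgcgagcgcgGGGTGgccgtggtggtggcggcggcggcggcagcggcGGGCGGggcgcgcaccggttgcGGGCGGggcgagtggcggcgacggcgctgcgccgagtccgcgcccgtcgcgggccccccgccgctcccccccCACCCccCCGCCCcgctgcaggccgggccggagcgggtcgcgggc
*Klf4*, chr4:55532476-55532725, minus strand: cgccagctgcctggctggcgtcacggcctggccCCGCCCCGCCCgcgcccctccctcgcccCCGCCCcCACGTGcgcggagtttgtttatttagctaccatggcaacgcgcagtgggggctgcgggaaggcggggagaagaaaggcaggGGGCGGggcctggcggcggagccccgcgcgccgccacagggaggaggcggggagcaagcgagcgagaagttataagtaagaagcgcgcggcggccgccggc

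The *Cebpa* window holds a TATA box, found in 12.4% of 32851 windows, and 1 CACCC box. *Klf15* holds 2 E-boxes, a motif found in 6.0% of all windows, and *Klf4* holds 1. GC boxes, found in 32.7% of all windows, occur 4 times in *Klf4*, 3 times in *Rxra* and once in *Klf15*. CpG dinucleotides number 40 in *Rxra*, 37 in *Klf15*, 32 in *Klf4* and 22 in *Cebpa*, against a median of 6 over all windows. The letters TTNNGNAAT, a C/EBP core found in 10.2% of windows, and TTCNNNGAA, a STAT motif found in 7.0%, are in none of the 14 windows of the members. The windows shown for the genes that fell and for the gene that rose thus share a high CpG content. The window of the second *Rxra* start holds 1 CpG, and those of members not called hold 2 (*Pparg*) to 41 (*Cebpb*). Among the windows shown, no motif searched is found in the 3 that fell and missing from the 1 that rose apart from CACCC, which 52.0% of all windows hold. At least 1 window each of *Pparg*, *Cebpb*, *Srebf1* and *Stat5a*, which were not called, holds CACCC as well.

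Of the early factors, *Klf4* rose in *Ctcflos* KD, and *Klf5*, *Cebpb*, *Cebpd* and *Stat5a* did not pass the test. *Cebpb* encodes C/EBPβ, which is among the first factors after induction and activates *Pparg* and *Cebpa*. It lies on chromosome 2 of GRCm38, from 167688915 to 167690418 on the plus strand, in 1 exon. Its levels were 11.9, 9.48 and 6.37 RPKM in KD replicates 1 to 3 and 12.7, 7.41 and 13.0 RPKM in NC ctrl. The spread within each group was larger than the difference between them (log2 fold change -0.23, 95% confidence interval -0.82 to 0.35, adjusted p = 0.52), and the interval leaves room for a fall or a modest rise. The gene overlaps *Tmem189* on the opposite strand, at 7.55 RPKM in *Ctcflos* KD and 7.34 RPKM in NC ctrl, and as no source says whether counting was stranded, reads of the overlap cannot be assigned to either gene.

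*Cebpd*, for the related C/EBPδ, lies on chromosome 16, from 15887286 to 15891031 on the plus strand, also in 1 exon. Its levels were 2.92, 3.94 and 1.58 RPKM in *Ctcflos* KD and 5.02, 2.90 and 5.94 RPKM in NC ctrl. The KD mean was 60.9% of the control mean, but NC replicate 2 was below KD replicates 1 and 2. The change did not pass the test (log2 fold change -0.57, 95% confidence interval -1.20 to 0.06, adjusted p = 0.16). In both C/EBP genes KD replicate 3 was the lowest library and NC replicate 2 the lowest control. *Cebpd* overlaps *Spidr* on the opposite strand, at 1.56 RPKM in *Ctcflos* KD and 2.27 RPKM in NC ctrl.

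*Klf4* encodes a zinc finger factor of early adipogenesis that activates *Cebpb*, and it was the member that rose. It lies on chromosome 4, from 55527143 to 55532466 on the minus strand. Its levels were 9.99, 5.65 and 2.11 RPKM in *Ctcflos* KD and 1.46, 1.40 and 1.36 RPKM in NC ctrl. The controls were tight, and every KD library was above them, but KD replicate 1 had several times the level of KD replicate 3. The mean was 5.92 ± 3.95 RPKM (SD, n = 3) against 1.41 ± 0.0483 RPKM (SD, n = 3), a 4.21-fold difference (log2 fold change 1.34, standard error 0.381, adjusted p = 0.038). Without KD replicate 3 the log2 fold change was 1.83 (adjusted p = 0.00066), and without any 1 of the other libraries the adjusted p was 0.074 to 0.12.

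*Klf5*, whose product cooperates with C/EBPβ and C/EBPδ on *Pparg*, was the least abundant member. It lies on chromosome 14, from 99298691 to 99315036 on the plus strand. Its levels were 0.445, 0.322 and 0.351 RPKM in *Ctcflos* KD and 0.131, 0.178 and 0.103 RPKM in NC ctrl, so that the groups did not overlap. These values rest on 6.5 to 33.6 reads per kilobase in a library. The KD mean was 2.71-fold the control mean, and the adjusted p without a filter was 0.053 (log2 fold change 0.27, standard error 0.0599), where 4.71% of 38335 genes were called and 1.96% were called higher. On the RefSeq mRNA alone, with 0.820, 0.601 and 0.657 against 0.267, 0.299 and 0.193 RPKM, the adjusted p was 0.011, and it was 0.044 with median of ratios scaling and 0.047 without KD replicate 3. It was 0.058 with a pseudocount of 0.1, 0.15 with a replicate block and 0.088 to 0.20 without any 1 of the other libraries.

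Signals of other cell types were compared beside the early KLF genes, which are also expressed outside fat cells. Of the macrophage markers, *Adgre1* was not analysed here, *Cd68*, *Csf1r*, *Ptprc*, *Itgam* and *Mrc1* summed to 3.40 to 5.44 RPKM in *Ctcflos* KD and 1.06 to 3.06 RPKM in NC ctrl, with no overlap. The sum was mostly *Cd68*, which rose from a mean of 1.08 to 3.24 RPKM (adjusted p = 0.023), and *Csf1r*, at 1.30 against 0.514 RPKM (adjusted p = 0.066 without a filter). *Ptprc*, *Itgam* and *Mrc1* were each under 0.3 RPKM in every library. Of these, *Ptprc* was lower in *Ctcflos* KD without overlap, at 0.00199 against 0.0327 RPKM. *Mrc1* was at 0.0307 against 0.12 RPKM and *Itgam* at 0.02 against 0.0177 RPKM, both with overlap. The macrophage markers thus did not move in a single direction. The mesothelial and epithelial markers *Krt19*, *Upk3b* and *Msln* summed to 27.7, 30.1 and 8.30 RPKM in KD replicates 1 to 3 and to 6.44 to 9.57 RPKM in NC ctrl. This sum was nearly all *Krt19*, while *Upk3b* and *Msln*, which define mesothelium, were each at most 0.0379 RPKM. KD replicate 3 was thus the KD library nearest to the controls in *Krt19* as in *Klf4*, and the part of either cell type in the *Klf4* and *Klf5* levels was not tested. Endothelial markers summed to 0.673 to 0.995 RPKM in *Ctcflos* KD and 1.25 to 1.46 RPKM in NC ctrl, mural markers to 1.06 to 1.71 and 1.54 to 2.19 RPKM, and lymphocyte markers to at most 0.126 RPKM, with *Cd3e* and *Cd3g* at 0 in every library. The summed preadipocyte markers overlapped between groups, at 179 to 399 and 275 to 449 RPKM, and were mostly *Ly6a*. Of this list *Pdgfra*, a receptor of fat cell progenitors, fell, at 12.2, 13.1 and 14.0 against 21.0, 19.7 and 24.6 RPKM (log2 fold change -0.69, adjusted p = 0.010), and the other 3 tested genes were not called.

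*Stat5a* encodes a transcription factor that growth hormone and prolactin receptors activate and that promotes *Pparg* expression. It lies on chromosome 11, from 100859351 to 100885169 on the plus strand. Its levels were 3.71, 3.15 and 3.01 RPKM in *Ctcflos* KD and 2.82, 2.73 and 3.01 RPKM in NC ctrl, so that KD replicate 3 and NC replicate 3 met at the same rounded value. The change did not pass the test (log2 fold change 0.15, 95% confidence interval -0.07 to 0.38, adjusted p = 0.28). Its values are uncertain to the extent that reads are shared with the near-identical neighbour *Stat5b* or with *Stat3*, which overlaps it on the opposite strand.

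At the core of the cascade, *Cebpa* fell and *Pparg* did not pass the test. *Cebpa* encodes C/EBPα, which maintains *Pparg* and confers insulin sensitivity on the fat cell, and lies on chromosome 7, from 35119293 to 35121928 on the plus strand. The antisense gene *Gm45091* overlaps it on the opposite strand. The *Cebpa* levels were 32.8, 31.8 and 63.9 RPKM in *Ctcflos* KD and 78.2, 75.4 and 74.1 RPKM in NC ctrl. All KD libraries were below all controls, and KD replicate 3 lay closer to the controls than to the other KD libraries. The mean was 42.8 ± 18.2 RPKM (SD, n = 3) against 75.9 ± 2.12 RPKM (SD, n = 3), or 56.4% of the control (log2 fold change -0.89, standard error 0.251, adjusted p = 0.038). Without KD replicate 3 the log2 fold change was -1.21 (adjusted p = 0.00054), whereas without any 1 of the other libraries the adjusted p was 0.095 to 0.12.

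*Pparg*, the master regulator of adipogenesis and the receptor that rosiglitazone binds, spans 129.4 kb of chromosome 6, from 115360951 to 115490399 on the plus strand. The antisense gene *Gm44079* overlaps it on the opposite strand. The *Pparg* levels were 34.4, 41.5 and 44.6 RPKM in *Ctcflos* KD and 51.7, 48.1 and 54.6 RPKM in NC ctrl. Although no KD library reached a control, the KD mean was 78.0% of the control mean and the change did not pass the test (adjusted p = 0.090), except without KD replicate 3 (log2 fold change -0.44, adjusted p = 0.037). Genes that span 100 kb or more had a median log2 fold change of -0.34 (886 genes), near the -0.36 of *Pparg*. The part of gene span in the *Pparg* level was not tested. From other libraries of this knockdown, the paper reports *Pparg* among the factors lowered directly after it, and *Cebpb* among those lowered later.

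*Rxra*, the DNA-binding partner of PPARγ, fell most and was the member called in every setting tried. It spans 86.5 kb of chromosome 2, from 27676440 to 27762957 on the plus strand, and no annotated gene overlaps it. Its levels were 1.73, 1.28 and 2.59 RPKM in *Ctcflos* KD and 4.81, 4.81 and 4.75 RPKM in NC ctrl. The controls were within 0.1 RPKM of each other, and the highest KD library was well below the lowest control. The mean was 1.87 ± 0.663 RPKM (SD, n = 3) against 4.79 ± 0.0360 RPKM (SD, n = 3), or 39.0% of the control (log2 fold change -1.04, standard error 0.156, adjusted p = 0.0071). Over the fits that left out 1 library, the adjusted p was 0.00036 to 0.045. Genes that span 30 to 100 kb had a median log2 fold change of -0.03 (2482 genes), and those of 100 kb or more had -0.34 (886 genes). *Rxra* lies near the upper edge of its class, and the part of gene span in the *Rxra* level was not tested.

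*Klf15* encodes a late KLF that activates the glucose transporter gene *Slc2a4*, and lies on chromosome 6, from 90462576 to 90475238 on the plus strand. Its levels were 1.14, 1.61 and 1.43 RPKM in *Ctcflos* KD and 2.40, 1.97 and 2.85 RPKM in NC ctrl. Here KD replicate 3 was not apart from the other KD libraries. The mean was 1.39 ± 0.237 RPKM (SD, n = 3) against 2.41 ± 0.438 RPKM (SD, n = 3), or 57.8% of the control (log2 fold change -0.51, standard error 0.125, adjusted p = 0.025). Among the fits that left out 1 library, the call was lost without KD replicate 1 (adjusted p = 0.074), NC replicate 1 (0.095) or NC replicate 3 (0.11).

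*Srebf1*, for the lipogenic factor SREBP1, overlapped between the groups. It lies on chromosome 11, from 60199089 to 60222581 on the minus strand. Its levels were 35.9, 22.1 and 25.6 RPKM in *Ctcflos* KD and 26.8, 25.3 and 23.4 RPKM in NC ctrl. The KD libraries lay on both sides of the controls (log2 fold change 0.12, 95% confidence interval -0.29 to 0.53, adjusted p = 0.66), and without KD replicate 1 the sign turned, to -0.08. *Rai1* overlaps *Srebf1* on the opposite strand, at 0.71 RPKM in *Ctcflos* KD and 1.16 RPKM in NC ctrl.

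**Figure D2:**
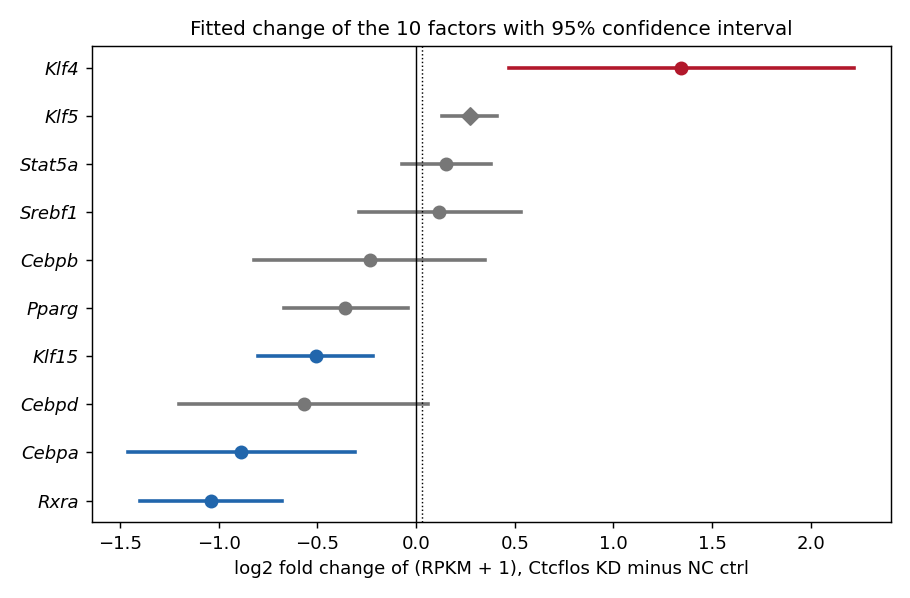
Fitted log2 fold change of (RPKM + 1), *Ctcflos* KD minus NC ctrl (horizontal axis), with its 95% confidence interval from limma for each of the 10 factors (vertical axis), in order of size. Blue is called lower, red called higher, grey not called, the diamond is *Klf5*, tested without a filter, and the dotted line is the median of all genes tested, 0.03; *Rxra* has the most negative value, -1.04, and *Klf4* the most positive, 1.34.

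The calls depended on single libraries in different ways, as 6 of the 10 members had KD replicate 3 as the KD library nearest to the control mean, *Cebpd*, *Klf5* and *Klf15* had KD replicate 2 and *Cebpb* had KD replicate 1. With all libraries 4 members were called. Without KD replicate 3 there were 6, *Pparg* and *Klf5* in addition, but the number of genes called overall was also larger, 4810 or 41.1% against 2803. Without KD replicate 1, NC replicate 1 or NC replicate 3, *Rxra* alone was called, and without KD replicate 2 or NC replicate 2, *Rxra* and *Klf15* were.

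**Figure D3:**
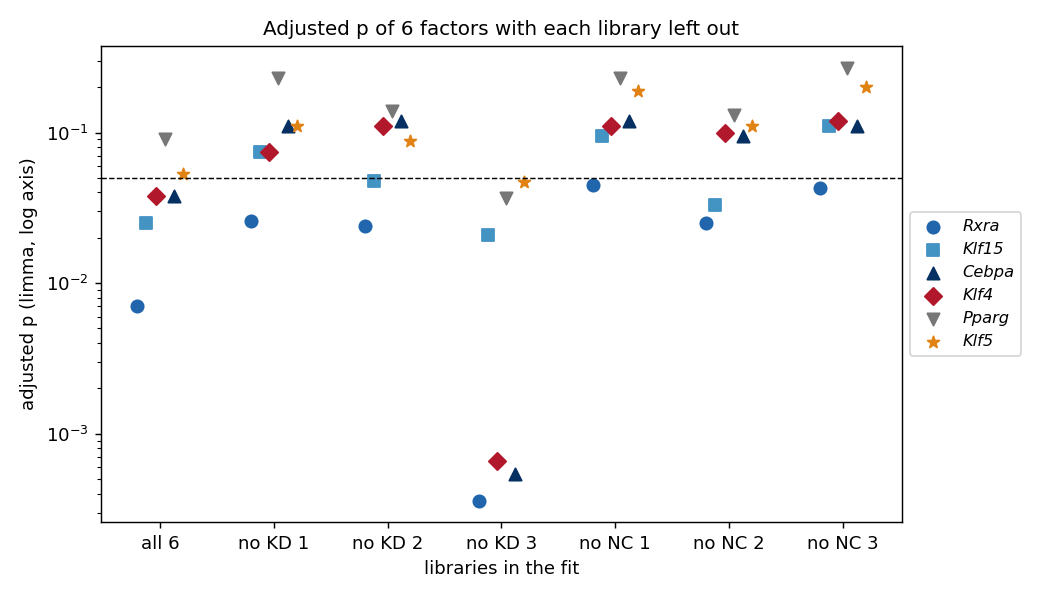
Adjusted p from limma (vertical axis, log scale, dashed line at 0.05) of 6 factors with all 6 libraries and with each library left out (horizontal axis, KD for *Ctcflos* KD and NC for NC ctrl). *Rxra* is under the line in every fit, and *Cebpa* and *Klf4* are under it with all libraries and without KD replicate 3 and over it in the other fits.

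The order of levels among the factors was read from RefSeq mRNAs, whose RPKM are per length. In NC ctrl the order was *Cebpa* (73.6 ± 1.37 RPKM), *Pparg* (51.5 ± 3.26), *Srebf1* (32.3 ± 2.26), *Cebpb* (10.8 ± 3.09), *Rxra* (6.77 ± 0.0568), *Stat5a* (3.93 ± 0.267), *Cebpd* (3.67 ± 1.20), *Klf15* (2.46 ± 0.446), *Klf4* (1.43 ± 0.0779) and *Klf5* (0.253 ± 0.0544; SD, n = 3). Neighbours in this order did not overlap, apart from *Stat5a*, *Cebpd* and *Klf15*. In *Ctcflos* KD the ranges of *Cebpa*, *Pparg* and *Srebf1*, at means of 41.4, 40.1 and 35.8 RPKM, ran into each other, *Klf4* stood at rank 5 with 6.05 ± 4.07 RPKM, and *Rxra* at rank 7 with 2.69 ± 0.911 RPKM. The ratio of *Pparg* to its partner *Rxra* was 14.0, 21.7 and 12.1 in *Ctcflos* KD and 7.60, 7.08 and 8.15 in NC ctrl, without overlap. For *Cebpa* to *Pparg* the ratio was 0.924, 0.762 and 1.37 against 1.45, 1.51 and 1.34, and KD replicate 3 fell within the controls. The ratio of the early *Klf4* to the late *Klf15* was 8.71, 3.49 and 1.43 against 0.633, 0.691 and 0.467. *Cebpa* to *Cebpb* overlapped, at 2.75, 3.42 and 9.81 against 6.05, 10.1 and 5.77.

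The accessions of a factor moved together. Of the 64 lines, all 4 of *Cebpa*, all 4 of *Klf15* and the 8 of *Rxra* that passed the filter were called lower and all 4 of *Klf4* higher. Lines of the other members that passed the filter were not called. Lines under the filter were not tested, among them some of *Rxra* and *Stat5a* and all 6 of *Klf5*. The *Klf5* lines had KD means at 198 to 308% of the control mean. Of all 67403 accessions that passed the filter, 26.0% were called, 14.7% lower and 11.3% higher. Accessions of a gene share reads, so that they are not separate evidence. The KD mean was 56.3 to 56.7% of the control mean over the accessions of *Cebpa*, 77.9 and 78.0% for the 2 *Pparg* mRNAs, NM_011146 and NM_001127330, and 29.6 to 77.7% over the 10 of *Rxra*. The 17 lines of *Srebf1* ranged from 98.2 to 120% and the 9 of *Stat5a* from 103 to 118%.

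Usage, the log2 fold change of an accession relative to the other accessions of its gene, was compared with limma diffSplice over 10027 genes. Of these, 0.668% were called and 370 had an unadjusted p under 0.05. None of the 9 members with accessions past the filter was called, and their unadjusted p was 0.92 to 1. Accessions of a gene share reads, so that a change of isoform may not show in this comparison. From reads that span splice junctions, the paper lists *Pparg* among the differentially spliced genes. The share of each accession in the summed RPKM of its gene was described without a test. No share moved by more than 2.19 percentage points, in *Klf5*, and in *Pparg* the 2 mRNAs held 51.3 and 48.7% of the control sum and moved by 0.0283 points. In *Rxra* the Ensembl transcript ENSMUST00000129514 held 5.70% in NC ctrl and moved by -1.50 points, and it was at 29.6% of the control level in *Ctcflos* KD, lower than the gene as a whole. Without a filter on low values *Rxra* was called for usage (adjusted p = 0.0038), with accessions as low as 0.0632 RPKM in the comparison.

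**Figure D4:**
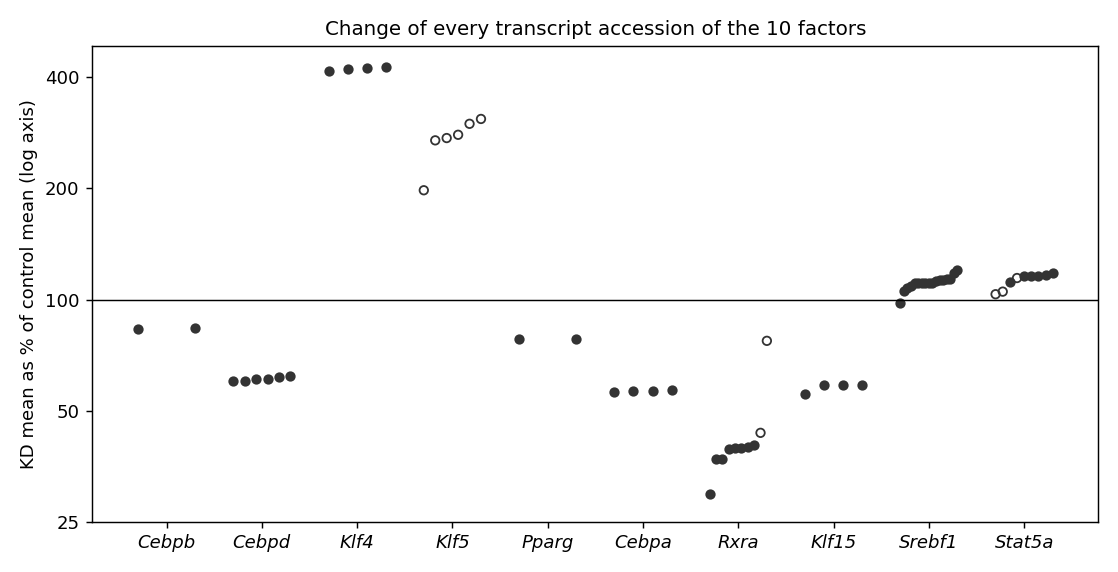
Mean RPKM in *Ctcflos* KD as percent of the mean in NC ctrl (vertical axis, log scale) for each of the 64 accessions, grouped by factor (horizontal axis). Filled points passed the filter and open points did not; the accessions of *Cebpa* lie between 56.3 and 56.7% and those of *Klf4* between 415 and 425%.

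Genes that act with or under these factors were described by 6 lists of 88 genes, of which 78 passed the filter. Of these, 23 fell and 1 rose in *Ctcflos* KD, beside 12.4% lower and 11.5% higher over all genes tested. Without KD replicate 3 these counts were 32 and 6 of 79, while over all genes the shares were also larger, at 17.8% lower and 23.3% higher. The lists were chosen with earlier results of these data known. They hold genes that the paper reports as lowered after this knockdown, such as *Ebf1* and *Nfia*, so that the counts are no test of an excess. Long genes leaned lower as a class, with a median of -0.34 in the 886 that span 100 kb or more. The part of gene span in the list counts and medians was not tested. Among other promoting factors, 5 of 16 tested genes fell and 0 rose (median log2 fold change -0.24, beside 0.03 over all genes tested). *Nfib* was at 5.78, 3.64 and 7.91 RPKM against 12.5, 10.9 and 11.3 RPKM (log2 fold change -0.94, adjusted p = 0.020). *Ebf1*, an early B cell factor that binds with PPARγ at fat cell genes, was at 2.96, 2.61 and 4.02 against 6.79, 7.02 and 6.73 RPKM (log2 fold change -0.92, adjusted p = 0.0059). *Nfia* fell likewise (log2 fold change -0.90, adjusted p = 0.011). In the 3 genes the groups did not overlap, and KD replicate 3 was the highest KD library.

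Of 8 tested factors that restrain adipogenesis, *Klf3*, a KLF that represses *Cebpa*, rose (log2 fold change 0.35, adjusted p = 0.032) and *Trib2*, a pseudokinase that promotes C/EBPα degradation, fell (log2 fold change -0.38, adjusted p = 0.045), with a median of -0.02 over the list. Among 15 coregulators 4 fell and 0 rose (median -0.08). The corepressor gene *Ncor1* was at 3.13, 2.77 and 4.19 against 5.99, 5.94 and 6.15 RPKM (log2 fold change -0.70, adjusted p = 0.011). *Ppargc1a* and *Ppargc1b*, for the PGC-1 coactivators of mitochondrial genes, had log2 fold changes of -0.55 and -0.54 (adjusted p = 0.049 and 0.033). The coregulators that fell thus include coactivators and a corepressor.

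Of 20 tested targets of PPARγ and C/EBPα, 5 fell and 0 rose (median -0.43), and without KD replicate 3 these counts were 11 and 1. *Slc2a4*, the insulin-responsive glucose transporter GLUT4 and a target of KLF15 as well, was at 4.48, 4.51 and 5.62 against 14.7, 9.60 and 13.8 RPKM (log2 fold change -1.21, adjusted p = 0.0056). *Mgll*, monoglyceride lipase, was at 31.2, 32.0 and 49.8 against 79.8, 72.4 and 79.3 RPKM (log2 fold change -1.05, adjusted p = 0.010). *Gpd1*, which makes the glycerol backbone of triglycerides, had a log2 fold change of -0.66 (adjusted p = 0.027). The abundant targets *Fabp4*, at 2830, 3470 and 3570 against 4200, 3680 and 4240 RPKM, and *Adipoq*, at 632, 802 and 1040 against 1170, 1150 and 1250 RPKM, did not pass the test (adjusted p = 0.16 and 0.069), nor did the adipocyte markers *Plin1*, *Cidec*, *Lpl* and *Cd36*. Without KD replicate 3, *Adipoq* and *Lpl* were called lower (adjusted p = 0.011 and 0.015).

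Of 12 lipogenic targets of SREBP1, 4 fell and 0 rose (median -0.23), where 12.4% of all genes tested were lower, and *Srebf1* itself was not called. *Acaca*, acetyl-CoA carboxylase and the committed step of fatty acid synthesis, was at 7.46, 7.18 and 11.6 against 31.7, 24.9 and 30.3 RPKM (log2 fold change -1.64, adjusted p = 0.0033). *Thrsp*, a lipogenic protein, was at 50.3, 61.8 and 36.5 against 157, 75.5 and 150 RPKM (log2 fold change -1.30, adjusted p = 0.021). *Gpam*, the first acyltransferase of triglyceride synthesis, had a log2 fold change of -0.86 (adjusted p = 0.0085).

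Around *Stat5a*, itself not called, 4 of the 7 genes of the STAT5 pathway fell and 0 rose (median -0.42), where 12.4% of all genes tested were lower. *Ghr*, the growth hormone receptor, was at 7.25, 7.66 and 14.9 against 21.7, 21.8 and 20.6 RPKM (log2 fold change -1.10, adjusted p = 0.017). The STAT5 targets *Igf1* and *Socs2* had log2 fold changes of -0.50 and -0.44 (adjusted p = 0.044 and 0.019). The other called genes among the 78 tested, named here after their values were seen, were *Ebf2*, *Xbp1*, *Ncoa1*, *Aqp7*, *Agpat2*, *Elovl6* and *Prlr*, each lower in *Ctcflos* KD. *Lep*, the leptin gene, was under the filter, at 0.00838 against 0.0532 RPKM (adjusted p = 0.041 without a filter).

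**Figure D5:**
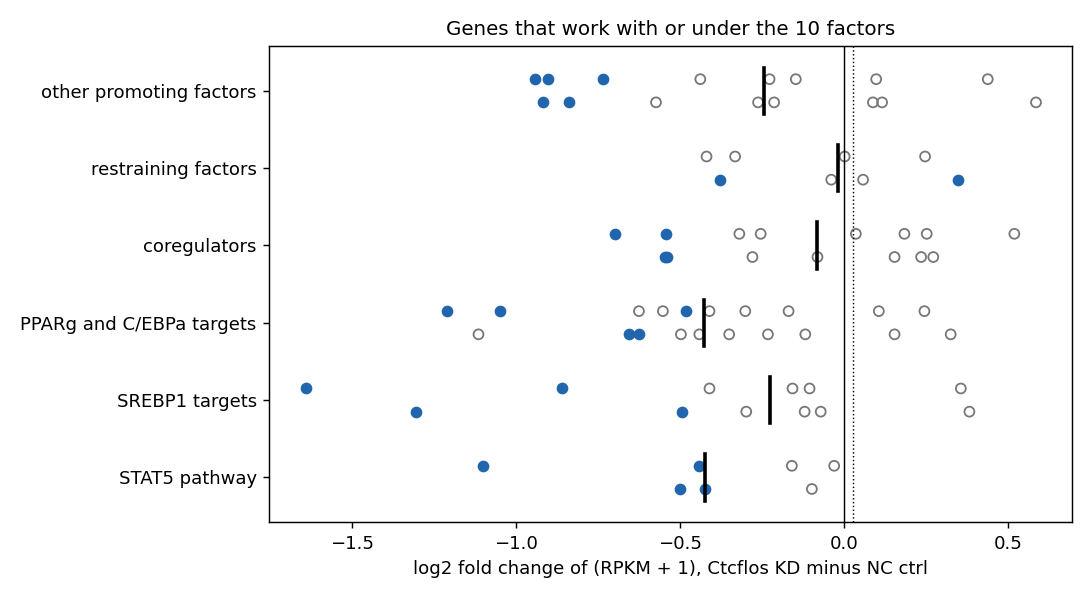
Log2 fold change of (RPKM + 1), *Ctcflos* KD minus NC ctrl (horizontal axis), of the 78 tested genes of the 6 lists (vertical axis). Filled points passed an adjusted p of 0.05, black bars are list medians and the dotted line is the median of all genes tested; the lowest point is *Acaca* at -1.64 and *Klf3*, at 0.35, is the filled point to the right of 0.

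Profiles over the 6 libraries were compared by the root mean square difference of centred log2(RPKM + 1) values. This measure depends on the size of a change as well as its shape. The list genes most like *Rxra* were *Ebf1* (0.0822) and *Mgll* (0.103), and those most like *Cebpa* were *Ghr* (0.114) and *Mgll* (0.143). *Klf15* was nearest to *Trib2* (0.0988) and *Agpat2* (0.0996). For *Klf4* the nearest of the 78 genes, *Klf6* (0.542) and *Ep300* (0.587), were several times farther away than for the members that fell. *Klf4* also had the largest change of the members, at a log2 fold change of 1.34, and the size of that change enters the distance.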

How the data were processed

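RNA-seq libraries of total RNA (TruSeq Stranded Total RNA, per the labels) were analysed for 3 *Ctcflos* KD and 3 NC ctrl samples, grouped by their titles. The authors deposited a table of RPKM values per transcript accession (168326 lines, 305 exact repeats removed), which are no counts, so that count tests were not used. For splice analysis of these libraries, the study's methods give STAR on GRCm38. The aligner and counter of this table are not given in the sources used here. Low values were whole reads (within 0.1) in 95.2 to 95.9% of cases, which gave the depth.

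Gene values were the mean RPKM over accessions of a symbol. Genes of mean RPKM at least 1 were tested with limma-trend on log2(RPKM + 1), and usage with limma diffSplice (Simes), adjusted by Benjamini-Hochberg. Overlapping accessions share reads. *Klf5* and *Ctcflos* came from the fit without a filter (genes above 0 in any library). On data simulated for 11701 genes, limma-trend recovered 200 of the 200 genes given a log2 change of 1 and made 10 false calls. The spread was 0.15 (SD, log2 scale), which is lower than that of *Cebpa* or *Klf4* here. By mean log2(RPKM + 1), the changed genes were all more abundant than *Klf4*, *Klf15* or *Klf5*. Nor did any simulated library stand apart as KD replicate 3 does, so that the recovery does not describe the member calls. Loci are from Gencode vM21. Alternatives were a pseudocount of 0.1, no filter, median of ratios scaling, a replicate block, RefSeq mRNAs alone, an adjusted p of 0.01, and leaving out each library; usage was also taken relative to the mean of the gene and on accessions with at least 5% of it.

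Named genes were the members, *Ctcflos*, the 3 called genes of largest change without overlap in each list and direction, the 2 list genes most like each called member, and cell type markers. Members and lists were chosen with earlier results of these data known. Tools were Python 3.11.15 (numpy 2.4.6, pandas 2.3.3, matplotlib 3.10.9) and R 4.3.3 with limma 3.58.1.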

Additional observations from a re-analysis of the deposited data

How the results depend on the processing

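Genes called in abundance were 2803, but 1807 without a filter on low values, 523 at an adjusted p of 0.01, and 369 (without NC replicate 3) to 4810 (without KD replicate 3) with each library left out. The 4 member calls became 1 without a filter and 1 at an adjusted p of 0.01 (*Rxra* in both), and 1 to 6 with each library left out. Without a filter more genes enter the adjustment and *Cebpa*, *Klf15* and *Klf4* had an adjusted p of 0.096, 0.069 and 0.11. Median of ratios scaling and RefSeq mRNAs alone gave 5 each, *Klf5* in addition, and a pseudocount of 0.1 gave 4. The scaling moved the median of all genes from 0.028 to -0.012, called 2492 genes, 1011 of them higher and 1481 lower where RPKM as deposited gave 1349 and 1454, and turned the direction of no member. *Srebf1* changed sign without KD replicate 1, to -0.076, and otherwise reached up to 0.263 (without KD replicate 2). Member calls in usage were 0 and became 1 (*Rxra*) without a filter. For *Ctcflos* the log2 fold change was -0.715 to -0.627 with each library left out, and called only without KD replicate 3.

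A replicate block in the fit called 1671 genes and 2 members (*Klf4*, adjusted p = 0.040, and *Rxra*, 0.019, but not *Klf15*, 0.054, or *Cebpa*, 0.055), and *Ctcflos* (-0.662) was not (0.11). Same-numbered libraries deviated from their group means with correlations of 0.29, -0.29 and -0.42. With 3 libraries per group these values do not decide whether the numbers pair the libraries. Replicate 3 had the lowest depth of each group, at 60.8 mio mapped reads in *Ctcflos* KD and 62.9 mio in NC ctrl. Pathway list counts without KD replicate 3 were chosen after seeing the data. At this depth *Klf5* rests on at most 33.6 reads per kilobase.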
